A study of Homo sapiens with 34 samples.

Results

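Clustered YAP5SA peaks are binding sites of activated YAP that lay close to other such sites in the genome. They were taken from the peak list of Flag-tagged YAP5SA in SW872 cells, a human liposarcoma line, as the peaks on chromosomes 1 to 22 and X whose summit had at least 2 other YAP5SA summits within 20 kb on the same chromosome. The rule kept 526 of 3754 YAP5SA peaks (14%) and left 3228, called the other YAP5SA peaks here. Chaining kept peaks whose neighbouring summits lay no more than 20 kb apart gave 164 clusters. Because the members were chosen by their positions in the YAP5SA list, their spacing, chromosomes and YAP5SA enrichment values are given as descriptions, and comparisons were made with the peak lists of the other constructs.

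The study was a chromatin immunoprecipitation and sequencing (ChIP-seq) experiment on SW872 cells stably transduced with 1 Flag-tagged construct each: YAP5SA, TFE3, the fusion YAP-TFE3, TAZ4SA, CAMTA1 or the fusion TAZ-CAMTA1. Each construct had 3 Flag immunoprecipitations and 2 input libraries, and empty vector (EV) cells had 2 IgG immunoprecipitations and 2 inputs. YAP5SA and TAZ4SA carry serine to alanine changes that remove the sites through which the Hippo pathway restrains YAP and TAZ. The study's methods have all cells near confluence, whereas the sample labels have the CAMTA1 cells collected before confluence. All groups were 1 cell line with an introduced transgene. The replicates were pooled by the authors into 1 peak list per construct, so the values below have no replicate spread. Intervals are 95% intervals for a proportion or for a difference between proportions. They cover counting error only, treat peaks as independent although neighbours share chromatin, and say nothing of variation between cultures.

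YAP and TAZ are coactivators that have no DNA-binding domain and reach DNA mainly through TEAD transcription factors, often at enhancers far from promoters. Closely spaced binding sites can mark large regulatory regions in which several enhancers sit side by side. YAP-TFE3 joins the start of YAP to the basic helix-loop-helix transcription factor TFE3, and TAZ-CAMTA1 joins the start of TAZ to CAMTA1, a calmodulin-binding transcription activator. Both fusions occur in epithelioid hemangioendothelioma, a vascular sarcoma.

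Most clusters were small. Of the 164 clusters, 128 held 3 or more kept peaks, and these contained 483 of the 526 members. Clusters of exactly 3 were the commonest size, with 84, followed by 23 clusters of 4 and 10 clusters of 5. Another 36 held only 1 or 2 kept peaks, because a peak can have 2 near neighbours that do not themselves meet the rule. Counting those beside clusters of 3 or more as well, 100 unkept peaks lay within 20 kb of a kept summit. At the upper end, 11 clusters held 6 or more kept peaks, and the largest held 13.

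The clusters of 3 or more kept peaks spanned between 1727 and 69581 bp, with a median of 14465 bp. Peaks covered a median of 11.4% of that span, so most of a cluster was DNA between peaks. Neighbouring kept summits lay a median of 4409 bp apart over 362 gaps. The gap was under 2000 bp in 82 cases (22.7%) and under 1000 bp in 22. Whether such close summits were separate sites or parts of 1 enriched stretch was not tested.

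**Figure D1:**
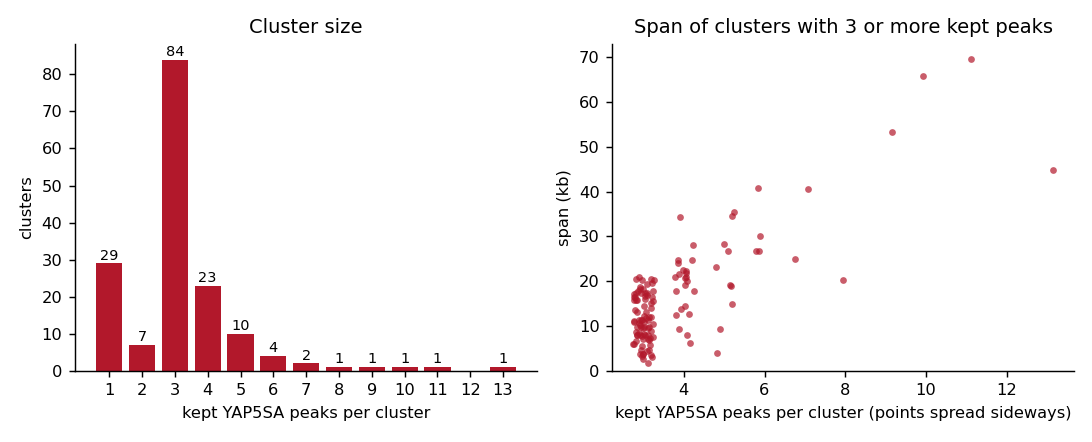
Left, the number of clusters (vertical axis) by the number of kept YAP5SA peaks in each (horizontal axis), with each bar's count printed above it. Right, the span in kb of the 128 clusters with 3 or more kept peaks by their number of kept peaks, 1 point per cluster. The 84 clusters of 3 peaks make the tallest bar, and the longest cluster, with 11 peaks, spans 69581 bp.

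The members just inside and just outside the limit were alike in kind. The 3 kept peaks nearest to the limit had their second neighbour at 19976, 19953 and 19919 bp and had fold enrichments of 4.17, 3.47 and 8.69. The 3 nearest peaks left out had it at 20009, 20009 and 20019 bp and had fold enrichments of 7.04, 4.22 and 4.92. In the band from 18 to 20 kb lay 38 kept peaks, of which YAP-TFE3 overlapped 42.1%, and in the band from 20 to 22 kb lay 44 peaks left out, of which it overlapped 40.9%.

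Clustered peaks were not the strong end of the YAP5SA list. Fold enrichment is the ratio of fragment pileup to local background at the summit, as the peak caller gave it. Its median was 4.68 in clustered peaks (quartiles 3.67 and 6.02) and 4.96 in the other peaks (4.10 and 6.11). The median −log10 q was 5.49 and 6.23. At the upper end clustered peaks were no weaker. The 90th percentile was 7.91 and 7.68 for fold enrichment, and 17.5 and 15.8 for −log10 q. The median number of immunoprecipitated fragments over the summit was 69 and 68. When all YAP5SA peaks were ranked by −log10 q and cut into 4 strength classes of similar size, 33.7% of clustered peaks fell in the weakest class and 23.8% in the strongest, against 25.9% and 22.9% of the other peaks. Clustered peaks were wider, with a median of 401 bp against 316 bp.

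The kept peaks of each cluster were also ranked by their YAP5SA strength. The order of the values by rank follows from that ranking and is given as a description. Over all YAP5SA peaks the quartiles of fold enrichment were 4.03, 4.89 and 6.09. In the 128 clusters of 3 or more, the strongest kept peak had a median fold enrichment of 6.76, the second strongest 4.999, and the remaining 227 peaks 3.72. The larger clusters were made of peaks with lower fold enrichment. That ratio is taken over the local background, which was raised more often in the larger clusters (below). A lower ratio there does not by itself mean fewer fragments over the summit. The median fold enrichment was 4.87 in clusters of 3, 4.57 in clusters of 4 or 5, and 3.69 in the 11 clusters of 6 or more.

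The local background at the summit differed between clustered and other peaks. The peak caller's fold enrichment and p-value together fix this background, which could be solved for 523 clustered and 3215 other peaks. It stood above the genome-wide value in 211 clustered peaks (40.3%) and in 552 of the other peaks (17.2%). The rise was small in most. The median ratio to the genome-wide value was 1 in both sets, the upper quartile was 1.22 in clustered peaks, and 60 clustered peaks (11.5%) exceeded 1.5. Clusters of 6 or more peaks had a raised background in 75.3% of their peaks, clusters of 4 or 5 in 38.0% and clusters of 3 in 31.7%. All kept peaks had a raised background in 22 of the 128 clusters of 3 or more, and none had in 48.

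**Figure D2:**
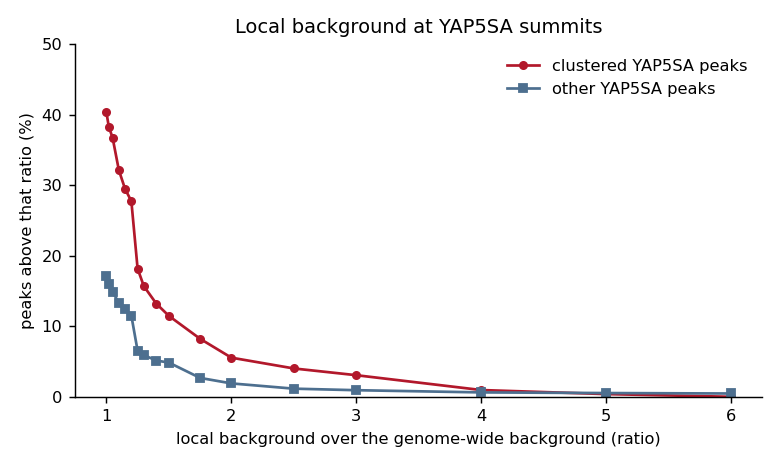
The percentage of YAP5SA peaks (vertical axis) whose local background exceeded the genome-wide background by the ratio on the horizontal axis, for clustered peaks (circles) and other peaks (squares). Above a ratio of 1 lie 40.3% of clustered and 17.2% of other peaks, and above a ratio of 2 lie 5.54% and 1.90%.

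The clustered peaks were unevenly spread over the chromosomes. Chromosome 5 held 182 of them, which was 26.4% of its 689 YAP5SA peaks, and chromosome 20 held 75, or 25.8% of its 291. These chromosomes together carried 48.9% of all clustered peaks and 22.4% of the other peaks. A high clustered share was also seen on chromosome 19 (24 of 79 peaks, 30.4%), chromosome 13 (29 of 103, 28.2%) and chromosome 11 (57 of 288, 19.8%). No peak was clustered on chromosomes 4, 6, 10, 18 or X, which had between 21 and 119 YAP5SA peaks each. The rule is met more easily wherever peaks are dense.

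Chromosomes with many clustered peaks differed in background. On chromosome 13, all clustered peaks and 66.7% of the other peaks had a raised background, and on chromosome 5 the values were 55.6% and 45.3%. The background was raised at 91.7% of clustered peaks on chromosome 19 but at 5.45% of the other peaks there, and all the raised clustered peaks there lay in 2 of its 3 clusters. On chromosome 20 (21.3% and 18.5%) and chromosome 11 (15.8% and 12.6%), clustered peaks had a background close to that of their neighbours. None of the 26 clustered peaks on chromosome 9 had a raised background, against 15.8% of the other peaks there.

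**Figure D3:**
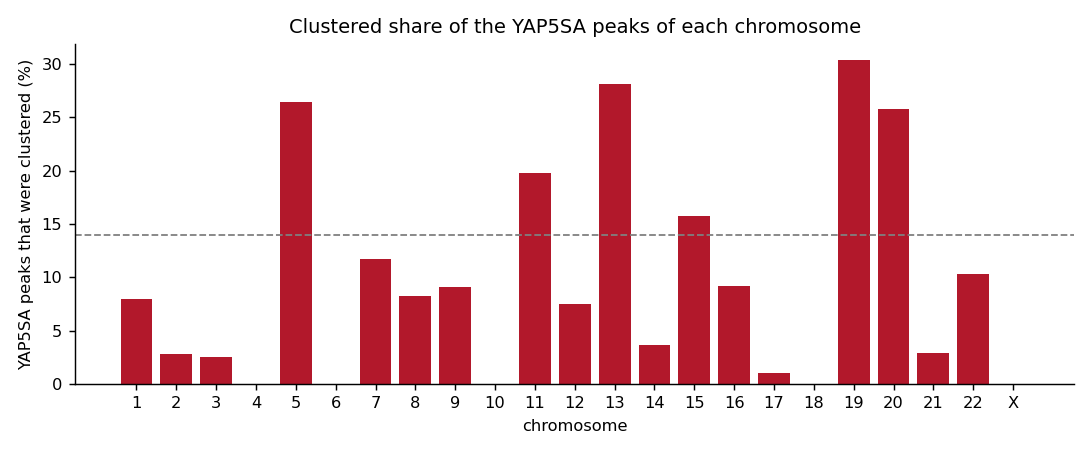
The percentage of each chromosome's YAP5SA peaks that were clustered (vertical axis, bars) by chromosome (horizontal axis). The dashed line is the value over all chromosomes, 14%. Chromosomes 5, 13, 19 and 20 have the 4 highest bars, and chromosomes 4, 6, 10, 18 and X are at 0.

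Occupancy by the other constructs was read as overlap of a clustered YAP5SA peak by at least 1 bp with a peak of that construct's list. YAP-TFE3 overlapped 224 of the 526 clustered peaks (42.6%, Wilson interval 38.4 to 46.9), against 36.5% of all YAP5SA peaks. TAZ4SA overlapped 106 (20.2%, 16.9 to 23.8), against 21.9% of all. TAZ-CAMTA1 overlapped 87 (16.5%, 13.6 to 19.96), against 17.6%. The overlaps came from 222 distinct YAP-TFE3 peaks, 106 TAZ4SA peaks and 86 TAZ-CAMTA1 peaks, so hardly any peak was counted at more than 1 member. TFE3 overlapped 6 clustered peaks (1.14%; 2.56% of all) and CAMTA1 overlapped 2 (0.380%; 0.186% of all). No clustered peak was overlapped by an EV IgG peak, which allows a share of up to 0.570%, and that list held only 4 peaks on these chromosomes.

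The lists differed in depth. The immunoprecipitated fragments per base, as recovered from the peak values, were 10.7 in the YAP5SA list, 10.5 in that of YAP-TFE3 and 8.61 in that of TFE3. They were 2.33 in the TAZ4SA list, 2.52 in that of TAZ-CAMTA1 and 2.21 in that of CAMTA1. The YAP and TFE3 constructs were thus the deep lists and the TAZ and CAMTA1 constructs the shallow ones. Depth and the family of the construct cannot be told apart in a comparison between lists.

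The comparison of clustered with other YAP5SA peaks was made within each list. YAP-TFE3 overlapped clustered peaks more often than the other peaks, of which it overlapped 1145 (35.5%). The difference was 7.11 percentage points (Newcombe interval 2.64 to 11.7). It was 6.64 points (2.24 to 11.2) when the YAP-TFE3 peak had to cover the YAP5SA summit, which takes the width of the YAP5SA peak out of the comparison. It fell to 1.21 points (-2.76 to 5.46) when each peak had to cover at least 50% of the other. It was 1.67 points (-1.75 to 5.47) when YAP-TFE3 was reduced to the 1166 peaks with the highest −log10 q, as many as TAZ4SA had. With clustered and other peaks compared within chromosomes, the difference was 4.96 points, for which no interval was computed. Without chromosomes 5 and 20 it was 11.3 points (5.09 to 17.5). It was 0.49 points (-7.29 to 8.70) on chromosome 5, with 182 clustered peaks, and 6.33 points (-6.47 to 19.2) on chromosome 20. The difference was therefore not resolved under reciprocal overlap, with the shortened list, or on chromosome 5 or 20 alone.

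For the TAZ constructs no difference was resolved. TAZ4SA overlapped 22.2% of the other YAP5SA peaks, a difference of -2.06 points (-5.59 to 1.84). TAZ-CAMTA1 overlapped 17.8%, a difference of -1.24 points (-4.47 to 2.41). Leaving out chromosomes 5 and 20 turned the sign of both, to 0.26 points (-4.80 to 5.98) for TAZ4SA and 2.25 points (-2.55 to 7.78) for TAZ-CAMTA1. For TFE3 the difference was -1.65 points (-2.53 to -0.226), from 6 clustered peaks and 90 other peaks. Its interval included 0 without chromosomes 5 and 20, at -1.43 points (-2.59 to 0.921), and among peaks with the background at the genome-wide value, at -1.27 points (-2.03 to 0.453). For CAMTA1 it was 0.225 points (-0.120 to 1.22), from 2 and 5 peaks.

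The lists also met in combinations. TAZ4SA, TAZ-CAMTA1 and YAP-TFE3 together overlapped 40 clustered peaks (7.60%), against 7.19% of all YAP5SA peaks. None of the other 5 constructs overlapped 257 clustered peaks (48.9%), against 50.5% of all. YAP-TFE3 was the only overlapping construct at 115 clustered peaks (21.9%) and at 15.7% of the other peaks, a difference of 6.19 points (2.62 to 10.1). TAZ4SA was the only one at 29 clustered peaks (5.51%) and at 8.21% of the other peaks, a difference of -2.70 points (-4.62 to -0.234). TAZ-CAMTA1 was the only one at 8 clustered peaks (1.52%) and at 3.53% of the other peaks, a difference of -2.01 points (-3.03 to -0.447).

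Occupancy rose with the strength of the YAP5SA peak in all 3 lists. In the strongest class of YAP5SA peaks, YAP-TFE3 overlapped 92 of 125 clustered peaks (73.6%) and 56.4% of the other peaks, a difference of 17.2 points (8.17 to 25.1). In the next classes it overlapped 45.0%, 32.3% and 26.6% of clustered peaks and 35.1%, 28.4% and 24.9% of the other peaks. The differences in these classes were 9.88 (-0.125 to 20.2), 3.89 (-4.28 to 13.01) and 1.64 points (-5.05 to 9.15). In the strongest class the excess was 16.3 points (7.13 to 24.4) with the summit covered and 2.61 points (-6.69 to 11.99) under 50% reciprocal overlap. By location it was 3.57 points (-13.3 to 18.9) on chromosome 5, 24.1 points (-1.27 to 39.99) on chromosome 20 and 21.5 points (8.96 to 31.2) on all the others.

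For the TAZ constructs the strongest class gave no resolved difference. TAZ4SA overlapped 46.4% of clustered and 44.9% of other peaks there, a difference of 1.55 points (-7.69 to 10.96), and TAZ-CAMTA1 overlapped 41.6% and 34.6%, a difference of 7.05 points (-1.93 to 16.4). In the weakest class TAZ4SA overlapped 4.52% and 8.74%, a difference of -4.22 points (-7.28 to 0.269). TAZ-CAMTA1 overlapped 3.39% and 8.26% of that class, a difference of -4.87 points (-7.63 to -0.711). Whether these differences changed from class to class was not tested. TFE3 overlapped 0 of the 125 clustered peaks of the strongest class, which allows a share of up to 2.4%, and 27 of the 738 other peaks there.

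**Figure D4:**
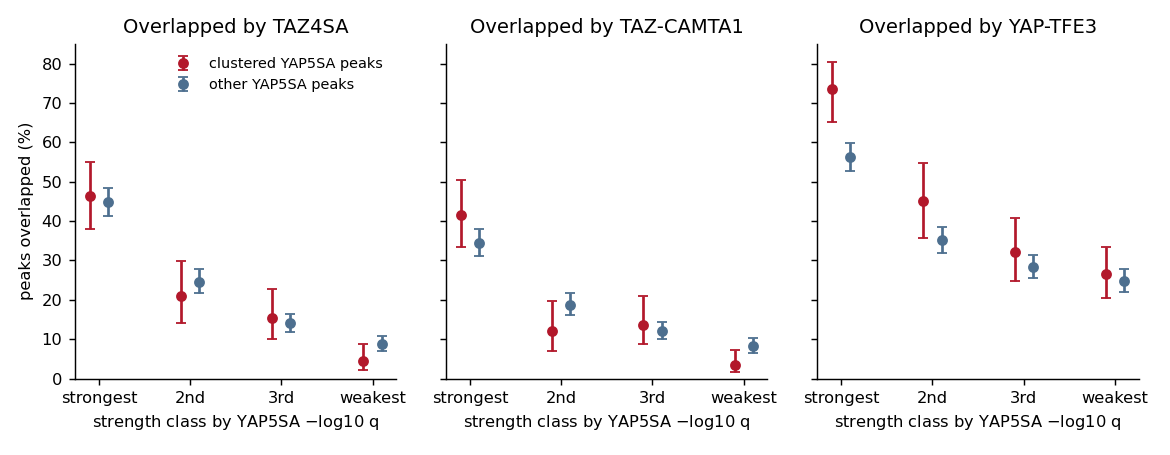
The percentage of YAP5SA peaks overlapped by TAZ4SA, TAZ-CAMTA1 or YAP-TFE3 (1 panel each, vertical axis) in the 4 strength classes of YAP5SA −log10 q (horizontal axis), for clustered and other peaks. Points are shares and bars their Wilson intervals. For YAP-TFE3 the strongest class stands at 73.6% of clustered and 56.4% of other peaks.

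The comparison was repeated by local background. Among peaks whose background was at the genome-wide value, YAP-TFE3 overlapped 43.6% of clustered and 34.6% of other peaks, a difference of 8.97 points (3.27 to 14.8). Among those with a raised background it overlapped 41.7% and 38.9%, a difference of 2.76 points (-4.90 to 10.6). The TAZ4SA and TAZ-CAMTA1 differences at the genome-wide value were -0.43 and 0.17 points, with intervals that included 0.

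Seen by cluster, YAP-TFE3 occupied a peak of most clusters, the TAZ constructs of fewer, and no construct occupied every peak of many. A cluster with several kept peaks has several chances of an overlap, so these shares depend on cluster size and list length. Peak by peak, YAP-TFE3 overlapped 36.5% of all YAP5SA peaks, TAZ4SA 21.9% and TAZ-CAMTA1 17.6%. The share of clusters to be met from these values alone was not computed, so the cluster shares are a description. YAP-TFE3 overlapped at least 1 kept peak in 124 of the 164 clusters (75.6%, 68.5 to 81.5) and every kept peak in 22 (13.4%, 9.03 to 19.5). TAZ4SA overlapped at least 1 kept peak in 80 of the 164 (48.8%) and TAZ-CAMTA1 in 63 (38.4%), and each overlapped every kept peak in 8 (4.88%). In the 128 clusters of 3 or more, YAP-TFE3 overlapped at least 1 kept peak in 107 (83.6%) and all of them in 9 (7.03%). TAZ4SA overlapped at least 1 in 71 of these clusters and all in 2. TAZ-CAMTA1 overlapped at least 1 in 55 and all in 2. A peak overlapped by all 3 lists occurred in 29 of these 128 clusters, and none of the 128 had every peak overlapped by all 3. In 10 clusters of 3 or more, none of the other 5 constructs overlapped any kept peak.

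The strongest peak of a cluster was the one most often shared. Overlap rose with strength outside clusters too. From the strongest to the weakest class, YAP-TFE3 overlapped 56.4%, 35.1%, 28.4% and 24.9% of the other YAP5SA peaks. The ranks within clusters were not compared with other peaks of equal strength. YAP-TFE3 overlapped 60.9% of the strongest kept peaks (52.3 to 69.0), 46.9% of the second strongest (38.4 to 55.5) and 29.5% of the remaining peaks (24.0 to 35.8). TAZ4SA overlapped 37.5%, 21.9% and 9.25%, and TAZ-CAMTA1 overlapped 28.1%, 20.3% and 7.05%. YAP-TFE3 overlap was highest in the largest clusters, at 52.8% of the 89 peaks in clusters of 6 or more (42.5 to 62.8), against 38.7% in clusters of 4 or 5 (31.1 to 46.9) and 40.9% in clusters of 3 (35.0 to 47.0). TAZ4SA overlap was lowest there, at 13.5% (7.88 to 22.1) against 22.5% (16.4 to 30.1) and 21.0% (16.5 to 26.5). Without the pair of these clusters on chromosome 19, described next, 67 peaks were left, of which YAP-TFE3 overlapped 47.8% and TAZ4SA 17.9%.

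The 5 largest clusters differed in which constructs occupied them. The largest lay at chr19:50595845-50640619 (positions on GRCh37 here and below) and held 13 kept peaks with fold enrichments from 2.53 to 5.20. YAP-TFE3 overlapped 8 of the 13, and neither TAZ4SA nor TAZ-CAMTA1 overlapped any. All kept peaks of this cluster but the strongest fell in the third or the weakest strength class. Over all clustered peaks of those classes, TAZ4SA overlapped 15.3% and 4.52%, and TAZ-CAMTA1 overlapped 13.7% and 3.39%. The strongest YAP5SA peak, at 5.20-fold and 104 fragments, overlapped with a YAP-TFE3 peak of 17.1-fold. Within the span lay 17 YAP-TFE3 peaks, of which 9 overlapped no YAP5SA peak. The background was raised at all 13 summits, by a ratio of 1.27 to 3.05.

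A second chromosome 19 cluster, at chr19:48407472-48460808, held 9 kept peaks and had the same pattern. YAP-TFE3 overlapped 7 of the 9, TAZ4SA and TAZ-CAMTA1 none, and 14 YAP-TFE3 peaks lay in the span. TFE3 overlapped 2 of the peaks, at 3.59-fold and 2.48-fold. The strongest YAP5SA peak here had a fold enrichment of 8.48 and overlapped with a YAP-TFE3 peak of 18.2-fold. The background ratio ran from 1.23 to 3.05. Over the whole of chromosome 19, TAZ4SA overlapped 1 of 24 clustered and 18 of 55 other YAP5SA peaks, TAZ-CAMTA1 overlapped 0 (which allows up to 12.5%) and 16, and YAP-TFE3 overlapped 16 and 27. With chromosome 19 left out, the difference between clustered and other peaks was 6.20 points (1.65 to 10.9) for YAP-TFE3, -1.11 points (-4.76 to 2.91) for TAZ4SA and -0.26 points (-3.61 to 3.53) for TAZ-CAMTA1.

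The remaining large clusters, on chromosomes 13 and 5, each had peaks overlapped by at least 1 TAZ construct. The longest, at chr13:97858275-97927855, held 11 kept peaks with fold enrichments from 2.502 to 10.9. YAP-TFE3 overlapped 6 of them, TAZ-CAMTA1 overlapped 5 and TAZ4SA overlapped 1. Its strongest peak, with 175 fragments, was overlapped by YAP-TFE3 at 5.01-fold and TAZ-CAMTA1 at 3.27-fold. The peak at the far end was overlapped by all 3 lists, at 4.91-fold for YAP-TFE3, 4.72-fold for TAZ-CAMTA1 and 4.51-fold for TAZ4SA. All 11 summits had a raised background.

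At chr5:135329271-135395021 a cluster of 10 kept peaks lay on a mostly flat background, raised at 2 summits and by a ratio of no more than 1.022. YAP-TFE3 overlapped 8 of the 10 peaks. TAZ-CAMTA1 overlapped 3 and TAZ4SA overlapped 2. The strongest peak, of 10.4-fold and 142 fragments, was overlapped by YAP-TFE3 at 11.3-fold and by neither TAZ construct. The last peak of the cluster, of 8.98-fold, was overlapped by all 3, at 8.86-fold for YAP-TFE3, 9.67-fold for TAZ-CAMTA1 and 7.21-fold for TAZ4SA. CAMTA1 overlapped 1 of the weaker peaks (4.14-fold) with a peak of 9.50-fold.

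The cluster at chr5:165765783-165786052 held the strongest clustered peak. That peak had a fold enrichment of 18.3 and 630 fragments over its summit, and was 2915 bp wide. TAZ4SA overlapped it at 26.7-fold and YAP-TFE3 at 2.56-fold, and TAZ-CAMTA1 overlapped no peak of the cluster. The other 7 kept peaks had fold enrichments from 2.34 to 3.63, and TAZ4SA overlapped 1 of them at 4.26-fold. Peaks covered 39.3% of the span, and the background was raised at all 8 summits by a ratio of 2.81 to 4.57.

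**Figure D5:**
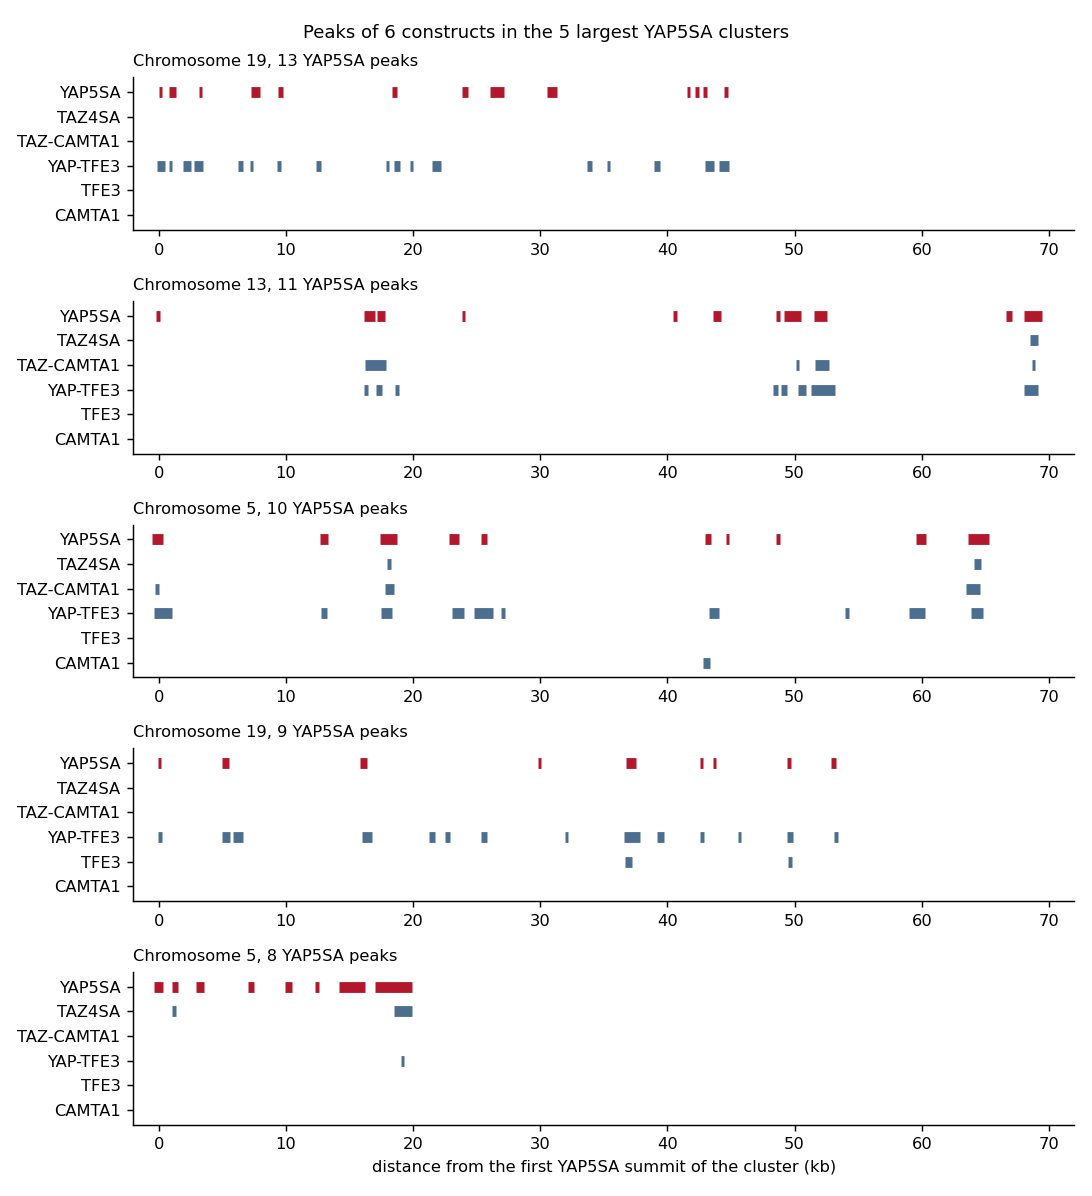
Peaks of the 6 constructs in the 5 clusters with the most kept YAP5SA peaks, 1 panel per cluster. The horizontal axis is the distance in kb from the first YAP5SA summit, each row is a construct and each block is a peak, drawn at least 0.25 kb wide. The rows of TAZ4SA and TAZ-CAMTA1 are empty in both chromosome 19 clusters, where YAP-TFE3 has 17 and 14 peaks.

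Some clusters of 3 or more kept peaks had no other construct. The 3 of these with the highest −log10 q lay at chr5:40382005-40402603, chr5:73529510-73537998 and chr5:102051077-102059051, with 3 kept peaks each. Others of this kind lay on chromosomes 1, 12, 13 and 20 as well. Because the 3 were picked by −log10 q, the strength of their peaks follows from the choice and is given as a description. The fold enrichments were 4.17, 7.54 and 4.34 in the first, 3.03, 3.53 and 6.25 in the second, and 4.79, 4.76 and 6.11 in the third of these clusters. The peaks of 7.54-fold and 6.25-fold were in the strongest class of the YAP5SA list.

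The full-length partner proteins met few clusters, CAMTA1 in 2 and TFE3 in 5 of the 164. Besides the clusters already described, 3 more are given here, and 2 others with a TFE3 peak are not. CAMTA1 overlapped a kept peak at chr7:25064425-25081814, where the YAP5SA peak was 2.47-fold on a background raised by a ratio of 5.49. TFE3 overlapped a peak at chr5:130950885-130985274, of 4.62-fold for YAP5SA and 4.53-fold for TFE3, which YAP-TFE3 (3.59-fold) and TAZ-CAMTA1 (3.21-fold) also overlapped. In the cluster at chr11:65244813-65266567 a YAP5SA peak of 4.03-fold was overlapped by TFE3 at 8.996-fold and YAP-TFE3 at 9.84-fold. Another peak of that cluster, of 4.25-fold, was overlapped by TAZ-CAMTA1 at 12.2-fold and YAP-TFE3 at 11.04-fold. The fusion peaks there had higher fold enrichments than the YAP5SA peaks, though values of separate lists rest on separate libraries.

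Peaks of the other constructs were counted inside the spans of the 128 clusters of 3 or more. These spans hold YAP5SA peaks by the rule, so the shares below are a description. Of 101 TAZ4SA peaks in the spans (8.66% of that list), 4 overlapped no YAP5SA peak, and over the whole list 71.1% did overlap a YAP5SA peak. For TAZ-CAMTA1 it was 7 of 84 peaks (7.09% of that list), with 56.0% over the whole list. For YAP-TFE3 it was 41 of 251 (7.52% of that list), with 41.2% over the whole list, and 9 and 7 of these 41 lay in the pair of large chromosome 19 clusters. Where a clustered peak was shared, the summits lay close together. The median distance between summits was 24.5 bp for TAZ4SA, 48 bp for TAZ-CAMTA1 and 38.5 bp for YAP-TFE3, against 23, 33 and 32 bp at the other YAP5SA peaks.

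The strength of the shared peaks in the other lists was similar at clustered and other sites. TAZ4SA peaks had a median fold enrichment of 6.36 over clustered and 6.91 over other YAP5SA peaks. For TAZ-CAMTA1 these were 5.68 and 5.73, and for YAP-TFE3 they were 4.74 and 4.95. The local background in the other lists was raised at more of the clustered sites too, as in YAP5SA. It was raised by over 1% at 85.7% of TAZ4SA peaks over clustered and 59.7% over other YAP5SA peaks, at 82.6% and 59.9% of TAZ-CAMTA1 peaks, and at 39.5% and 21.2% of YAP-TFE3 peaks.

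The same spacing rule was applied to the other lists. It kept 307 of the 3336 YAP-TFE3 peaks (9.203%) in 94 clusters, 29 of 1166 TAZ4SA peaks (2.49%) in 12 clusters, and 41 of 1184 TAZ-CAMTA1 peaks (3.46%) in 14 clusters. It kept 3 peaks each of the TFE3 and CAMTA1 lists. Of the peaks so kept, 154 of YAP-TFE3 (50.2%), 19 of TAZ4SA (65.5%) and 20 of TAZ-CAMTA1 (48.8%) lay inside a YAP5SA cluster span, and none of TFE3 or CAMTA1 did. Over the whole lists, 8.09% of YAP-TFE3, 9.43% of TAZ4SA and 7.85% of TAZ-CAMTA1 peaks lay inside these spans. Both the kept peaks and the spans were chosen by close spacing, so these shares are a description.

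The number of peaks a rule of this kind keeps moves with the length of the list. With each list reduced to the 1166 peaks with the highest −log10 q, the rule kept 29 peaks of YAP5SA (2.49%, 1.74 to 3.55), 29 of YAP-TFE3, 29 of TAZ4SA and 37 of TAZ-CAMTA1 (3.17%, 2.31 to 4.34). At equal length the YAP5SA count was no higher than that of any of the other 3 lists.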

How the data were processed

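The libraries were Flag, IgG and input ChIP-seq samples of SW872 cells, grouped by construct from the sample labels. Per the study's methods, the authors pooled replicate reads and trimmed them (Atropos), placed them on GRCh37 (BWA-MEM), removed multi-mapping reads and greylisted regions, and called peaks with macs2 on paired fragments. The labels name hg38, but the scaffold names in the lists are those of GRCh37, so positions are given as deposited. The reference genome at hand was GRCh38, so no gene, sequence or motif is given. The controls behind each list's local background could not be established.

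The deposited data were 7 lists, for the 6 constructs and EV IgG. The fold enrichment in the deposited lists is the ratio, computed by the authors with macs2, of fragment pileup at the summit to local background. The −log10 p and −log10 q values were also computed by the authors with macs2 from a Poisson model at the summit before they were deposited. The display score was derived by the authors' macs2 run from q, and was not used. The highest q in the YAP5SA list was 0.0993. Peaks on unplaced scaffolds were left out, 103 of them in the YAP5SA list. The columns were not counts, so the depth per library is unknown. Fragments over the summit and the local background were solved from the fold enrichment and p-value together, for 96.8 to 99.9% of the peaks of each construct's list. A background was called raised when above the genome-wide value by 0.006 scaled fragments.

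The members and all lists used were chosen with earlier results of these data known. Overlap needed at least 1 bp. Shares have Wilson and differences Newcombe 95% intervals, and no p-value was computed. Clusters described singly were the 5 with the most kept peaks, that with the strongest peak, 3 without any other construct (the most kept peaks, ties by the highest −log10 q), and those with CAMTA1 or TFE3 peaks, up to 5. No cluster of 3 or more kept peaks met a further criterion, that TAZ4SA, TAZ-CAMTA1 and YAP-TFE3 overlap every kept peak. Scripts were tested on simulated lists. The scripts ran under Python 3.11.15 with scipy 1.17.1, numpy 2.4.6, matplotlib 3.10.9 and pandas 2.3.3.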

Additional observations from a re-analysis of the deposited data

How the results depend on the processing

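Across 14 results and 90 alternatives, 72 values lay inside the reported value's interval or under 1.5 times from its count, 18 moved, and none with an interval apart from 0 changed sign. The number of clustered peaks was 288 with a limit of 10 kb, 1042 with 50 kb and 269 without chromosomes 5 and 20, and the number of clusters was 106, 259 and 87. Without those chromosomes, TAZ4SA overlapped 24.5% and TAZ-CAMTA1 21.9% of clustered peaks. Under 50% reciprocal overlap the shares were 15.2% for TAZ4SA, 11.98% for TAZ-CAMTA1 and 27.8% for YAP-TFE3, and the YAP-TFE3 difference was 1.21 points. That difference was 1.67 points with the YAP-TFE3 list cut to 1166 peaks, and from 4.96 to 11.3 points in its other settings. The share of clusters with every kept peak overlapped by YAP-TFE3 was 20.8% at 10 kb, 8.88% at 50 kb and 8.54% under reciprocal overlap. The share with at least 1 such peak was 82.4% for YAP5SA peaks with q below 0.01 and 59.8% under reciprocal overlap. Requiring the summit to be covered, or the background to be at the genome-wide value, was added after seeing the data. The causes were not tested. No paired analysis was possible because each list came from pooled replicates, which also kept single replicates from being dropped.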
